A study of Mus musculus with 6 samples.

Results

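The cell cycle genes described here are 10 genes chosen by name, of 54532 gene identifiers measured in mouse liver. They are the D-type cyclins Ccnd1, Ccnd2 and Ccnd3, the later cyclins Ccne1, Ccna2 and Ccnb1, the kinase gene Cdk1, the proliferation markers Mki67 and Top2a, and the inhibitor gene Cdkn1b. Bulk RNA was sequenced from untreated livers in 6 libraries, 3 from mice with a liver-specific Arid2 knockout (LKO) and 3 from wild-type (WT) mice. ARID2 is a subunit of the PBAF chromatin remodelling complex, and the series title places the study in hepatic steatosis and JAK2 signalling. The sources used here give no age, sex, strain, diet or driver of the liver deletion. Nor do the labels tie each library to an animal of its own, and p-values here measure only the spread between these samples, which may be technical.

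A cell that leaves rest first raises D-type cyclins, which activate the kinases CDK4 and CDK6. Cyclin E with CDK2 then carries it into DNA synthesis, cyclin A acts through S phase and G2, and cyclin B with CDK1 drives mitosis. The protein p27, encoded by Cdkn1b, holds cyclin-CDK2 back in resting cells. Adult hepatocytes are mostly at rest and re-enter the cycle after injury or loss of tissue, when Ccnd1 is among the genes that rise. In growing cells the transcripts of S phase and mitosis are made in a burst, while D-type cyclins also respond to growth signals before any division.

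Values are FPKM, which are fragments relative to library scale and to gene length, here the merged length of all annotated exons. Merged exons can be longer than the transcript present, so levels can be set side by side between genes only roughly. Steps in the FPKM gave 13947787 to 18159285 reads in the LKO libraries and 16140525 to 17312282 reads in the WT libraries. Both libraries numbered 1 stood apart from the rest, with 2368 (LKO) and 2003 (WT) genes at 1 to 5 reads, against 3913 and 4263 in the other LKO libraries and 3945 and 4051 in the other WT libraries. Mitochondrial transcripts took 27.6%, 7.72% and 4.76% of reads in LKO replicates 1 to 3 and 20.7%, 10.2% and 18.5% in WT replicates 1 to 3. The liver markers Alb, Apoa1, Ttr and 9 others, 12 in all, were present in every library. Arid2 itself did not separate the genotypes, with 2.55, 1.33 and 2.04 FPKM in LKO replicates 1 to 3, against 2.65, 1.74 and 1.79 FPKM in WT replicates 1 to 3 (limma log2 difference -0.05 ± 0.24 SE, adjusted p = 0.974). Values sum over the whole gene, so reads of a deleted exon could not be viewed apart. Every direction below is therefore between libraries labelled LKO and libraries labelled WT.

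All 10 genes were low in these livers, and they fell into an upper and a lower tier. Averaged over the 6 libraries, Cdkn1b lay highest at 3.12 FPKM, followed by Ccnd3 at 2.74 and Ccnd1 at 1.89 FPKM. Ccne1 followed at 0.824 FPKM. The other 6 genes lay below 0.5 FPKM, the filter on mean level used for the test. They were Cdk1 (0.247 FPKM), Ccna2 (0.238), Ccnd2 (0.223), Mki67 (0.181) and Top2a (0.101), with Ccnb1 the lowest. From Cdk1 to Mki67 the order does not go beyond the spread between libraries.

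Of the 4 members that passed the filter, none was called between the genotypes (limma, adjusted p under 0.05). Over all 11672 genes tested, 0.00857% were called higher in LKO and 0.0343% lower, 0.0428% in all, so a count of 0 among 4 is near that background. An unadjusted p under 0.05 was found for 1 of the 4, Ccnd1, and for 9.22% of all genes. Without the filter, the remaining 6 members had adjusted p values between 0.773 and 1.00 (limma). Groups did not overlap for 1 of the 10 members, Ccnd1, which was higher in LKO; 8.0% of all tested genes lay higher in LKO without overlap and 7.42% lower. In whole liver, a change in the number of cells of a type cannot be told apart from a change in RNA per cell.

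**Figure D1:**
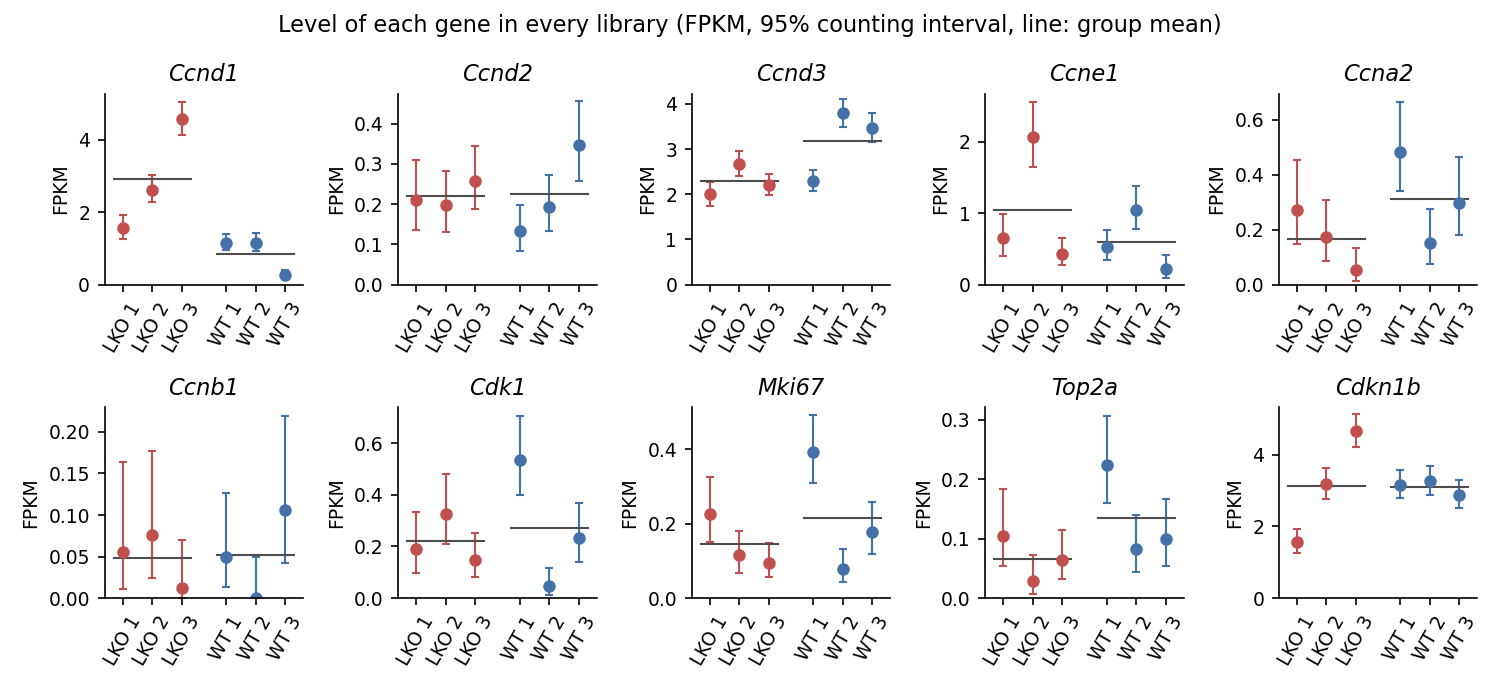
FPKM of the 10 genes in each library, with LKO replicates on the left (red) and WT replicates on the right (blue) of each panel. Error bars are 95% exact Poisson intervals on the reads, which cover counting error only, and lines are group means. Ccnd1 lies between 1.57 and 4.56 FPKM in LKO libraries and between 0.258 and 1.16 in WT libraries, and in the other 9 panels the groups overlap.

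Among the D-type cyclins, Ccnd1 had the largest difference in means of the 10 genes. Ccnd1 (ENSMUSG00000070348, chromosome 7, 144929931 to 144939925, minus strand, mm10) had 1.57, 2.62 and 4.56 FPKM in LKO replicates 1 to 3, which stood for 94, 193 and 408 reads. Levels in WT replicates 1 to 3 were 1.16, 1.16 and 0.258 FPKM, on 105, 96 and 19 reads. Every LKO library was above every WT library, but the groups lay close at their edge. The 95% counting interval of LKO replicate 1, 1.27 to 1.92 FPKM, overlapped that of WT replicate 1, 0.946 to 1.40 FPKM, and that of WT replicate 2. Means were 2.92 ± 1.52 FPKM in LKO and 0.858 ± 0.519 FPKM in WT (SD, n = 3 each), 3.40-fold apart. On the scale of log2(FPKM + 1), LKO minus WT was 1.05 ± 0.35 (SE; 95% interval 0.23 to 1.87), and the difference was not called (limma adjusted p = 0.419). An exact two-sided permutation test gave p = 0.1, the smallest that 3 against 3 libraries allow.

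The size of the Ccnd1 difference depended on libraries at opposite ends of the groups. Its log2 difference was 0.76 without LKO replicate 3, 0.79 when WT replicate 3 was left out, and 1.32 without LKO replicate 1. With array quality weights it was 1.38 and passed the threshold (limma adjusted p = 0.0247), where the other settings gave adjusted p values up to 0.936. That setting also called 621 genes higher and 574 lower of 11672, and its weights did not reach their convergence tolerance. With a pseudocount of 0.1 the Ccnd1 difference was 1.74, and 1.90 with voom on the recovered reads, since a pseudocount of 1 shrinks differences of low genes. Within LKO, Ccnd1 was lowest in the library with the highest mitochondrial share (27.6%) and highest in the library with the lowest (4.76%); the part of that share in the level was not tested. The gene shares 1100 of its 4709 exon bases with LTO1 on the opposite strand. The sources used here do not say if counting used strand, so Ccnd1 is uncertain to that extent; LTO1 lay between 0.962 and 1.43 FPKM in LKO libraries and between 1.02 and 1.75 in WT libraries.

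Ccnd3, the D-type cyclin with the highest mean, lay in the other direction. Ccnd3 (ENSMUSG00000034165, chromosome 17, 47505051 to 47599691, plus strand) had 2.0, 2.68 and 2.20 FPKM in LKO replicates 1 to 3 and 2.30, 3.79 and 3.47 FPKM in WT replicates 1 to 3. WT replicate 1 lay within the LKO range and the other WT libraries above it. The log2 difference was -0.33 ± 0.23 (SE; 95% interval -0.88 to 0.21) and was not called (limma adjusted p = 0.747). Ccnd3 shares 361 of 8775 exon bases with Bysl on the opposite strand, a gene at 2.47 to 10.4 FPKM in LKO libraries and 2.10 to 4.01 FPKM in WT libraries.

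Ccnd2, the D-type cyclin best known from lymphoid, ovarian and pancreatic islet cells, stayed near the bottom of the range in both genotypes. Ccnd2 (ENSMUSG00000000184, chromosome 6, 127125162 to 127152193, minus strand) had 0.209, 0.197 and 0.257 FPKM in LKO replicates 1 to 3 and 0.132, 0.193 and 0.347 FPKM in WT replicates 1 to 3. The lowest and the highest value both belonged to WT, on 24 and 51 reads. In the fit without a filter the log2 difference was -5.3e-06 ± 0.12 (SE, 95% interval -0.28 to 0.28) and was not called. The pseudocount of 1 shrinks differences at this level, so the interval does not bound the fold difference closely.

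Set against each other within a library, the D-type cyclins differed in make-up between the genotypes. Such ratios do not depend on how libraries are scaled. Their level does depend on the merged exon lengths, 4709 bases for Ccnd1 and 8775 for Ccnd3, which are the same for every library. Ccnd1 made up 41.6%, 47.7% and 65.0% of the summed FPKM of the 3 genes in LKO replicates 1 to 3 and 32.2%, 22.5% and 6.35% in WT replicates 1 to 3. Ccnd3 made up 52.9%, 48.7% and 31.4% in LKO and 64.1%, 73.7% and 85.1% in WT. Neither share overlapped between the groups. Ccnd2 made up only 3.59% to 8.52%, so these 2 shares are near complements and count as 1 observation. The log2 ratio of Ccnd1 to Ccnd3 averaged 0.22 ± 0.73 in LKO and -2.15 ± 1.43 in WT (SD, n = 3 each), a difference of 2.37 (exact two-sided permutation p = 0.1, the smallest possible). With each library left out in turn the difference lay between 1.57, without WT replicate 3, and 2.95, without WT replicate 1. These ratios were set up with the Ccnd1 values known and are a description, not a separate result. The sum of the 3 genes overlapped, at 3.78, 5.49 and 7.02 FPKM in LKO replicates 1 to 3 and 3.59, 5.14 and 4.07 FPKM in WT replicates 1 to 3 (exact two-sided permutation p = 0.3).

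**Figure D2:**
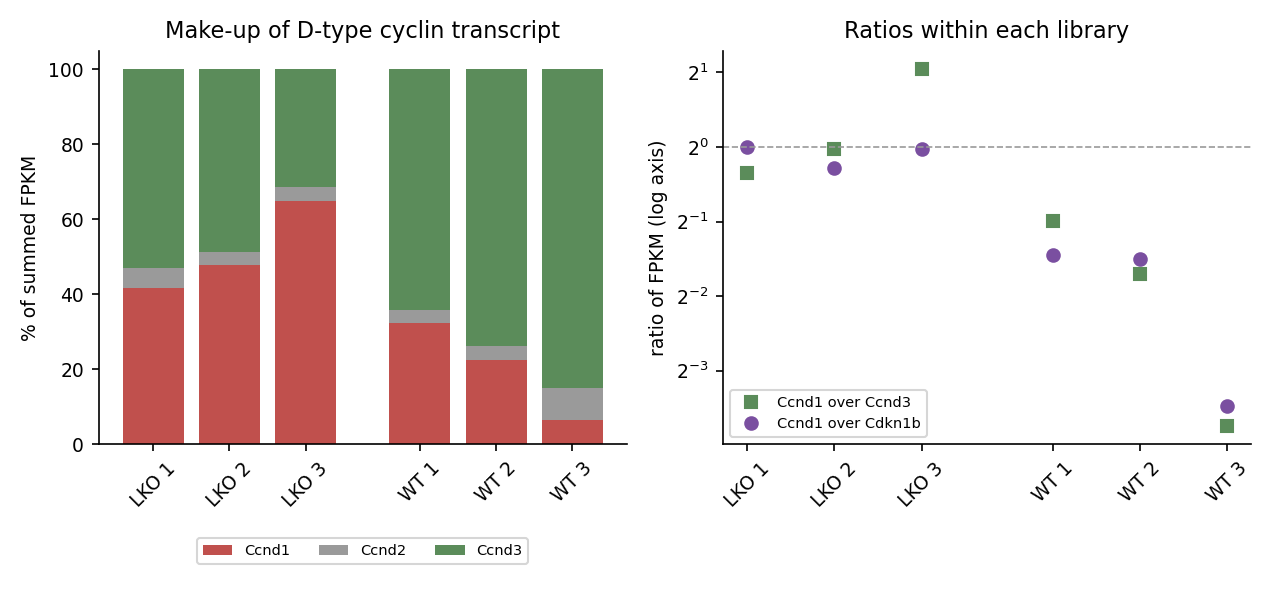
Left, share of each D-type cyclin gene in the summed FPKM of the 3 in each library; right, ratio of Ccnd1 FPKM to Ccnd3 FPKM (squares) and to Cdkn1b FPKM (circles) on a log axis, LKO libraries on the left of each panel. The share of Ccnd1 is 41.6% to 65.0% in LKO libraries and 6.35% to 32.2% in WT libraries.

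Cdkn1b, which encodes the CDK inhibitor p27, had nearly equal means in the genotypes and very unequal spread. Cdkn1b (ENSMUSG00000003031, chromosome 6, 134920401 to 134925513, plus strand) had 1.57, 3.18 and 4.66 FPKM in LKO replicates 1 to 3 and 3.17, 3.27 and 2.88 FPKM in WT replicates 1 to 3. LKO replicate 1 lay below and LKO replicate 3 above every WT library, and their counting intervals, 1.27 to 1.93 and 4.22 to 5.14 FPKM, were clear of those of WT. The highest LKO library was 2.96 times the lowest, against 1.13 times among WT libraries. Means were 3.14 ± 1.54 FPKM in LKO and 3.11 ± 0.201 FPKM in WT (SD, n = 3 each; limma log2 difference -0.06 ± 0.31 SE, 95% interval -0.79 to 0.67, adjusted p = 0.974). The sign turned without LKO replicate 1, to 0.24, and without both libraries numbered 1, to 0.26. LKO replicates stood in the same order for Cdkn1b as for Ccnd1, the reverse of their mitochondrial shares (27.6%, 7.72% and 4.76%). The part of those shares in the levels was not tested. The ratio of Ccnd1 to Cdkn1b was narrow in LKO, at 0.999, 0.826 and 0.979, and lay at 0.365, 0.354 and 0.0896 in WT. On the log2 scale the ratios differed by 2.04 (exact two-sided permutation p = 0.1, the smallest possible), and by 1.37 without WT replicate 3. This ratio too was set up with the Ccnd1 values known and is a description, not a separate result.

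Ccne1, the E-type cyclin that works with CDK2 at entry into S phase, was set apart by a high value in LKO replicate 2. Ccne1 (ENSMUSG00000002068, chromosome 7, 38097984 to 38107534, minus strand) had 0.651, 2.07 and 0.435 FPKM in LKO replicates 1 to 3 and 0.526, 1.05 and 0.216 FPKM in WT replicates 1 to 3. The replicate numbered 2 was the highest in either genotype, and the groups overlapped. The log2 difference was 0.31 ± 0.34 (SE; 95% interval -0.49 to 1.11, limma adjusted p = 0.852), and it turned to -0.02 without LKO replicate 2. It was 0.13 without WT replicate 3 and 0.96 with array quality weights, the highest of the settings tried (limma adjusted p = 0.0714). WT replicate 3 rested on 9 reads.

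The genes of S phase, G2 and mitosis were low in both genotypes, and Ccnb1, at 0 to 7 reads, lay around the floor of 3 reads. Ccna2 fell to 4 reads in LKO replicate 3, Cdk1 in WT replicate 2 and Top2a in LKO replicate 2, while Mki67 had 14 to 76 reads. Together the 5 genes Ccna2, Ccnb1, Cdk1, Mki67 and Top2a had 70, 63 and 48 reads in LKO replicates 1 to 3 and 208, 42 and 86 reads in WT replicates 1 to 3. Their summed level was 0.849, 0.715 and 0.372 FPKM in LKO and 1.68, 0.360 and 0.915 FPKM in WT. The highest and the lowest library were both WT, so the groups overlapped (exact two-sided permutation p = 0.5). WT replicate 1 was the highest library for 4 of the 5 genes, all but Ccnb1.

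**Figure D3:**
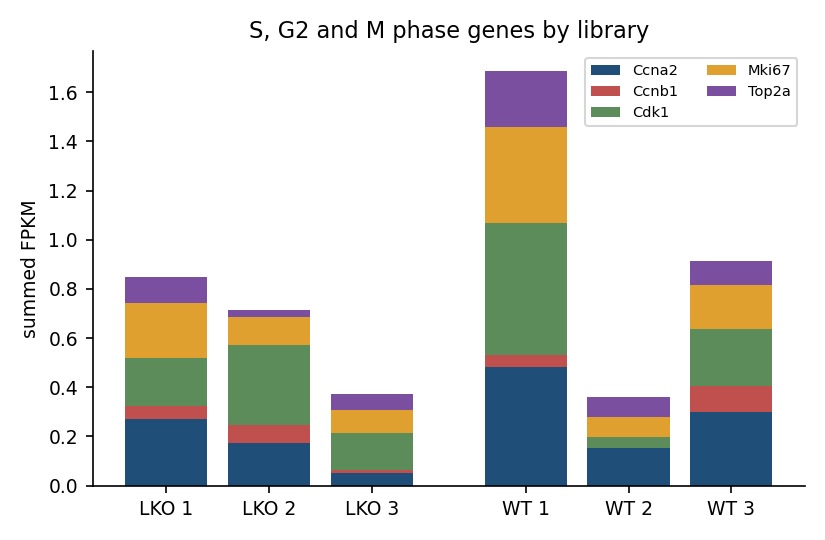
Summed FPKM of Ccna2, Ccnb1, Cdk1, Mki67 and Top2a in each library, stacked by gene, LKO on the left. WT replicate 1 reaches 1.68 FPKM, and the other libraries lie between 0.360 (WT replicate 2) and 0.915 FPKM (WT replicate 3).

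Mki67, whose protein coats mitotic chromosomes and is the usual stain for cycling cells, had the most reads of the 5 genes. Mki67 (ENSMUSG00000031004, chromosome 7, 135689784 to 135716361, minus strand) had 0.227, 0.114 and 0.0942 FPKM in LKO replicates 1 to 3, which stood for 29, 18 and 18 reads. Levels in WT replicates 1 to 3 were 0.392, 0.0791 and 0.178 FPKM, on 76, 14 and 28 reads. WT replicate 1 was 4.95 times WT replicate 2, and all LKO libraries lay between them. In the fit without a filter its log2 difference was -0.08 ± 0.13 (SE; 95% interval -0.39 to 0.23, limma adjusted p = 0.856), and -0.45 with voom.

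Top2a encodes the topoisomerase that untangles DNA for chromosome segregation, and Cdk1 the mitotic kinase. Top2a (ENSMUSG00000020914, chromosome 11, 98992943 to 99024189, minus strand) had 0.105, 0.0284 and 0.0642 FPKM in LKO replicates 1 to 3 and 0.224, 0.0820 and 0.0994 FPKM in WT replicates 1 to 3. LKO replicate 1 lay above WT replicates 2 and 3, so the groups overlapped. Cdk1 (ENSMUSG00000019942, chromosome 10, 69335146 to 69352938, minus strand) had 0.191, 0.324 and 0.149 FPKM in LKO replicates 1 to 3 and 0.536, 0.0461 and 0.234 FPKM in WT replicates 1 to 3. WT held both the highest and the lowest library, 11.6 times apart, on 51 and 4 reads. The log2 differences without a filter were -0.09 ± 0.08 for Top2a and -0.04 ± 0.17 for Cdk1 (SE; limma adjusted p = 0.773 and 0.947). With voom on the recovered reads the difference of Top2a was -1.07 and that of Cdk1 was 0.17 (limma adjusted p = 0.799 for Top2a).

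Ccna2 and Ccnb1 encode the cyclins of S phase, G2 and mitosis. Ccna2 (ENSMUSG00000027715, chromosome 3, 36564865 to 36572150, minus strand) had 0.270, 0.172 and 0.0516 FPKM in LKO replicates 1 to 3 and 0.483, 0.153 and 0.298 FPKM in WT replicates 1 to 3. WT replicate 2 lay below LKO replicates 1 and 2, so the groups overlapped. Its log2 difference without a filter was -0.17 ± 0.15 (SE; limma adjusted p = 0.773), and -1.10 with voom on the recovered reads. Ccna2 shares 510 of 4083 exon bases with Exosc9 on the opposite strand. Exosc9 lay at 0.201 to 0.761 FPKM in LKO libraries and 0.474 to 0.555 FPKM in WT libraries. That is above Ccna2 itself in replicates 2 and 3 of both genotypes and below it in both libraries numbered 1. Ccnb1 (ENSMUSG00000041431, chromosome 13, 100778650 to 100786570, minus strand) had 3, 5 and 1 reads in LKO replicates 1 to 3 and 4, 0 and 7 reads in WT replicates 1 to 3. The 0 in WT replicate 2 allows up to 0.0404 FPKM (3 reads). No difference in Ccnb1 was detectable at this depth. Ccnb1 also has the processed pseudogenes Ccnb1-ps, Gm12856 and Gm8416 at 97.3% to 99.2% identity, all at 0 in every library; the sources used here do not say how reads matching several copies were counted, so Ccnb1 is uncertain.

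Since 4 of these 5 genes were highest in the same library, promoters of the members are shown. In mammals, genes of G2 and mitosis often carry CCAAT boxes, bound by NF-Y, upstream of a CHR element with the letters TTTGAA, which the DREAM complex uses to silence them in resting cells. The RefSeq promoter table (GRCm38.p6) held 7 of the 10 members; Ccnd1, Ccnd2 and Ccna2 were not matched. The 200 bases before the RefSeq start were searched for CCAAT and TTTGAA on both strands, and they are printed for the members with both motifs, 5′ to 3′ along the gene. Capitals mark the matches, none of which overlap.
Mki67, chr7:135716380-135716579, minus strand: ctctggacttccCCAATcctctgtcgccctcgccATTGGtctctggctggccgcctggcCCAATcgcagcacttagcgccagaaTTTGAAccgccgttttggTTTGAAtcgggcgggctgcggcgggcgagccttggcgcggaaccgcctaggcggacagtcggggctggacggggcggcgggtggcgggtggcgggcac
Cdk1, chr10:69352913-69353112, minus strand: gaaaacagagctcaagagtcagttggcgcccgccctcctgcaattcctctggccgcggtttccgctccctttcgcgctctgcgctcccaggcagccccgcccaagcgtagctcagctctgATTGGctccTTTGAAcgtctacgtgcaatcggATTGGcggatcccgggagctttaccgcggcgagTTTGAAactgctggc
Top2a, chr11:99024190-99024389, minus strand: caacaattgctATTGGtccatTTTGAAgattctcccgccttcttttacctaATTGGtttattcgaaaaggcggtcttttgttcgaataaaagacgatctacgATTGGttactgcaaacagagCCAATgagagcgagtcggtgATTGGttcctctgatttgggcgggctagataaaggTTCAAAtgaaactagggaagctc
Mki67 held 3 CCAAT and 2 TTTGAA matches, Cdk1 had 2 and 2, and Top2a had 5 and 2. Ccnb1 had 2 CCAAT matches and no TTTGAA, as did Cdkn1b. Among all 32851 promoters of that table, 29.3% held CCAAT, 12.5% held TTTGAA and 3.69% held both within the same 200 bases. A match describes the letters and does not show that a factor was bound in these livers.

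**Figure D4:**
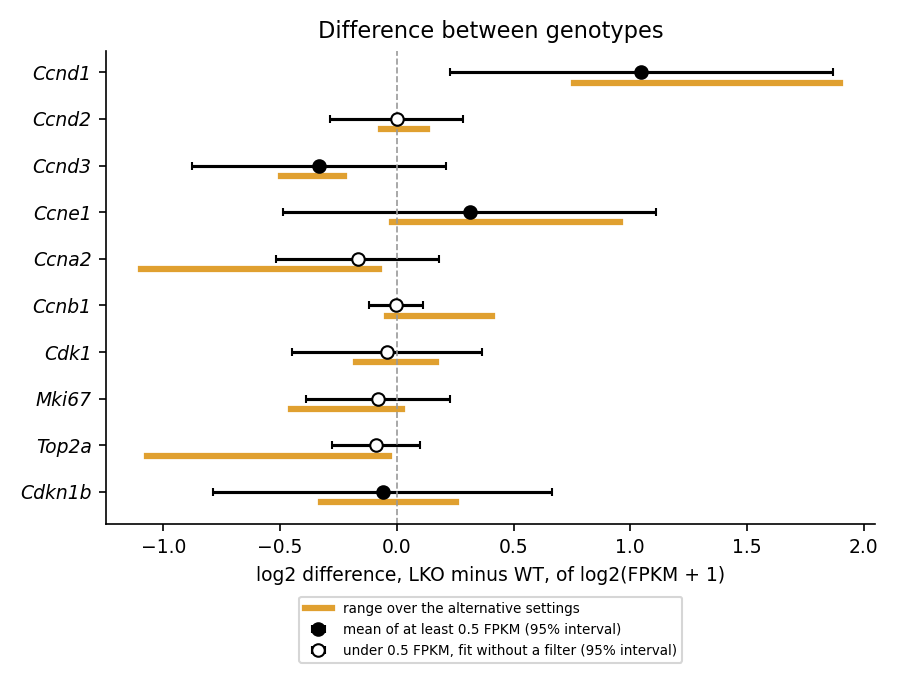
Log2 difference, LKO minus WT, of log2(FPKM + 1) for the 10 genes with its 95% limma interval; filled circles passed the filter of 0.5 FPKM and open circles come from the fit without a filter. Orange bars span the alternative settings, of which voom is on its own log2 scale of recovered reads. Of the 10 intervals, that of Ccnd1 alone, 0.23 to 1.87, does not reach 0.

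Genes that work beside the members were read from 6 lists, and no tested gene of any list was called between the genotypes (limma, adjusted p under 0.05). Among those tested, an unadjusted p under 0.05 was found for 2 G1 regulators, 1 replication gene, 1 of the other cyclins and none of the rest. Over all genes tested the share was 9.22%. In the fit without a filter, Mycn of the G1 list and Birc5, Cdc20 and Aurkb of the G2 list also reached it, all lower in LKO. There, 1406 of 22574 genes did so. Median log2 differences below stand against 0.03 for all genes tested.

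Of 28 G1 and G1/S regulators, 20 were tested, with a median log2 difference of 0.13. Cdkn1a, which encodes the CDK inhibitor p21, had 5.49, 10.8 and 0.519 FPKM in LKO replicates 1 to 3 and 0.365, 0.272 and 0.396 FPKM in WT replicates 1 to 3. LKO replicates 1 and 2 were far above WT and LKO replicate 3, where Ccnd1 was highest, only just above it (limma log2 difference 1.86 ± 0.67 SE, adjusted p = 0.454). Cdkn2c, the gene of the CDK4 and CDK6 inhibitor p18, was at 0.440, 0.548 and 1.39 FPKM in LKO and at 2.12, 2.29 and 1.53 FPKM in WT, lower in every LKO library (limma log2 difference -0.76 ± 0.26 SE, adjusted p = 0.419). Tfdp1, a partner of E2F factors and also on the DREAM list, was at 9.89 ± 3.51 FPKM in LKO and 5.65 ± 1.00 in WT (SD, n = 3 each; limma adjusted p = 0.564). Of the 20 genes, 5 lay higher and 3 lower in LKO without overlap, where 8.0% and 7.42% of all genes tested did so.

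Of 44 DNA replication and S phase genes, 28 were tested, with a median of -0.06 and 13 above 0 against 15 below. Mcm10, which encodes a DNA replication factor, had 12.9, 9.34 and 9.94 FPKM in LKO replicates 1 to 3 and 25.7, 15.1 and 18.5 FPKM in WT replicates 1 to 3, lower in every LKO library (limma log2 difference -0.80 ± 0.29 SE, adjusted p = 0.450). Thymidine kinase gene Tk1 was at 4.59 ± 2.84 FPKM in LKO and 7.80 ± 0.496 in WT, and the polymerase subunit gene Pola2 at 1.73 ± 0.939 and 2.87 ± 0.345 FPKM in LKO and WT (SD, n = 3 each; limma adjusted p = 0.585 and 0.635). Of the 28 tested genes, none lay higher in LKO without overlap and 3 lay lower, where the shares over all genes tested were again 8.0% and 7.42%.

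Of 47 further genes of G2 and mitosis, 39 fell under the filter, as did the mitotic members. Of the 39, Birc5 had 3, 0 and 18 reads in LKO replicates 1 to 3 and 52, 36 and 27 in WT replicates 1 to 3. Cdc20 had 2, 4 and 7 reads in LKO and 28, 9 and 24 in WT. Aurkb, Kif11, Kif4, Espl1, Ncapg and Ncaph also lay lower in LKO without overlap. Kif2c alone of the 39 lay higher without overlap, with 10, 1 and 5 reads in LKO and 1, 1 and 0 in WT. None of these was called in the fit without a filter (limma adjusted p = 0.607 for Birc5, 0.740 for Cdc20 and 0.773 for the others). The 8 tested had a median of -0.24, and none of them lay higher in LKO without overlap and 1 lay lower. Over all genes tested these shares were 8.0% and 7.42%. For genes under the filter no such share was worked out. Smc4, a condensin subunit, was at 0.695 ± 0.210 FPKM in LKO and 1.37 ± 0.436 in WT, and the condensin gene Ncapd2 at 0.505 ± 0.311 and 0.760 ± 0.192 FPKM in LKO and WT. Pttg1, which encodes securin, had 4.76, 2.30 and 1.03 FPKM in LKO replicates 1 to 3 and 0.441, 1.28 and 1.86 FPKM in WT replicates 1 to 3 (limma adjusted p = 0.579 for Smc4, 0.820 for Ncapd2 and 0.699 for Pttg1). LKO replicate 1 was the highest library for Pttg1, and the groups overlapped.

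The other cyclins, most of which work outside the core cycle, gave 12 tested genes of 16, with a median of 0.05, which turned to -0.03 with quantile normalization and to -0.05 with library totals. The list also holds Ccna1 and Ccnb3, which fell under the filter, and Ccne2, the other E-type cyclin, which is counted among the G1 regulators too. Ccnt2 and Ccnt1 encode cyclins of the transcription elongation kinase. They lay on opposite sides of 0, Ccnt2 at 2.40 ± 1.29 FPKM in LKO and 4.72 ± 1.21 in WT, and Ccnt1 at 2.15 ± 0.256 FPKM in LKO and 1.37 ± 0.118 in WT (SD, n = 3 each; limma adjusted p = 0.517 and 0.585). Ccng2 was at 2.21 ± 0.306 FPKM in LKO and 1.70 ± 0.209 in WT (limma adjusted p = 0.777).

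The DREAM complex and MuvB core had 10 tested genes of 14 and a median of 0.12, which turned to -0.08 without LKO replicate 3. E2f4, the E2F factor of resting cells, was at 8.05 ± 1.47 FPKM in LKO and 5.71 ± 1.04 in WT, and Tfdp2 at 0.898 ± 0.134 and 1.37 ± 0.187 FPKM in LKO and WT (SD, n = 3 each; limma adjusted p = 0.681 and 0.658). The CDK-activating and degradation machinery had 19 tested genes of 22 and a median of 0.14. Of the 19, 15 lay above 0, where 6310 of all 11672 genes tested did so. Without overlap, 3 lay higher in LKO and none lower, against 8.0% and 7.42% of all genes tested. Fbxo4, an F-box protein linked to cyclin D1 turnover, was at 6.33 ± 2.28 FPKM in LKO and 3.68 ± 0.194 in WT, above WT in every LKO library. Cul1, the cullin scaffold of the same ligase class, was at 15.7 ± 2.77 FPKM in LKO and 11.2 ± 0.843 in WT. Fbxw7, the F-box protein that recognises cyclin E, was at 0.973 ± 0.277 FPKM in LKO and 1.58 ± 0.517 in WT (SD, n = 3 each; limma adjusted p = 0.586 for Fbxo4, 0.652 for Cul1 and 0.695 for Fbxw7).

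**Figure D5:**
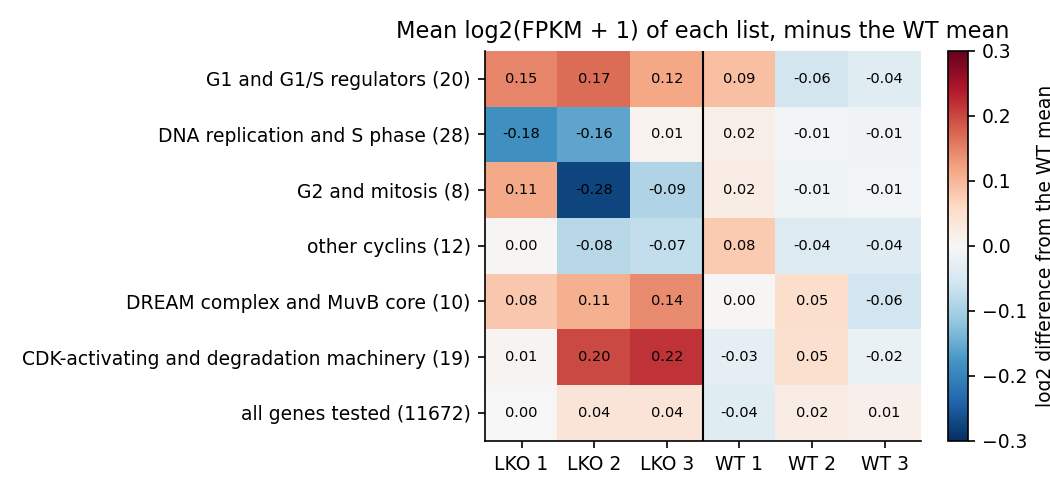
Mean log2(FPKM + 1) of the tested genes of each list in each library, minus the WT mean, with the number of genes in brackets and LKO libraries on the left. DNA replication genes lie at -0.18 and -0.16 in LKO replicates 1 and 2 while LKO replicate 3, at 0.01, lies within the WT range of -0.01 to 0.02.

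Markers of other liver and blood cells were read in the same libraries, since resident or passing cells can divide. The 9 B and plasma cell markers, 4 of them tested, summed to 17.4, 10.7 and 8.94 FPKM in LKO replicates 1 to 3 and to 70.7, 23.3 and 27.3 FPKM in WT replicates 1 to 3, and 4 of the 9 were at 0 in at least 1 library. WT replicate 1, the highest library for these markers, was also the highest for Mki67, Top2a, Cdk1 and Ccna2. The 9 endothelial markers summed to 40.2, 14.7 and 14.5 FPKM in LKO and to 39.5, 23.0 and 28.9 FPKM in WT, highest in both libraries numbered 1. The 11 macrophage and Kupffer cell markers summed to 29.2 to 77.9 FPKM in LKO and 28.5 to 71.5 FPKM in WT. The 11 T and NK cell markers summed to 1.38 to 3.32 FPKM in LKO and 2.13 to 3.12 FPKM in WT. Neutrophil markers summed to 16.3, 11.4 and 3.27 FPKM in LKO and 3.82, 0.953 and 3.80 FPKM in WT, with Ly6g and Ngp at 0 throughout. Erythroid markers, 6 of 10 tested and all 6 below 0, had a median log2 difference of -0.91, and summed to 149, 93.4 and 124 FPKM in LKO and 224, 333 and 142 FPKM in WT. Cholangiocyte markers summed to 10.2, 30.9 and 9.33 FPKM in LKO and 24.8, 14.9 and 21.8 FPKM in WT, and LKO replicate 2, their highest library, was also the highest for Ccne1. Stellate cell and fibroblast markers summed to 13.7 to 23.4 FPKM in LKO and 15.2 to 18.3 FPKM in WT. The part of any of these cells in the members' levels was not tested.

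For Ccnd1, Cdkn1b and Ccnd2, the genes with the closest pattern were named by the root mean square difference of centred log2(FPKM + 1) over the 6 libraries, among 8891 or 8892 genes that averaged 1 FPKM or more. Those closest to Ccnd1 were Arfgap2, Gabbr2, Plekhb2 and Ppp1cc, at 0.22 to 0.25, where the SD of Ccnd1 itself was 0.73. Arfgap2 had 3.22, 7.08 and 10.9 FPKM in LKO replicates 1 to 3 and 3.64, 4.53 and 2.33 FPKM in WT replicates 1 to 3, so its groups overlapped. Those closest to Cdkn1b were Syap1, Hgsnat, Xrcc6 and Xpot, at 0.06 each. For Ccnd2 the closest genes, Prrc2c, Birc6, Tmem41b and Isca2, were nearly flat, since a level under 0.5 FPKM leaves an SD of only 0.08 on this scale.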

How the data were processed

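Per the labels' protocols, TRIzol and column-purified liver RNA was made into NEBNext Ultra libraries. The authors deposited 1 table of FPKM per library. Per the submitters' processing notes, the build was mm10 and the tools were featureCounts 1.5.0-p3, HISAT2 2.0.5, CASAVA and DESeq2 1.20.0, with no roles; the sources used here do not give annotation, strand setting or filters. GENCODE vM21 matched 54495 of 54532 identifiers and gave symbols and merged exon lengths. FPKM times length fell on steps in which 96.1% to 96.4% of values above 0 were whole reads within 0.05; intervals and floors (3 reads) from them cover counting error only. Step totals divided by median-of-ratios size factors agreed between libraries, at 0.995 to 1.00 of their mean, which points to scaled libraries.

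LKO and WT were compared with limma-trend (limma 3.58.1, R 4.3.3) with robust empirical Bayes, fitted to log2(FPKM + 1) of the 11672 genes averaging 0.5 FPKM or more, genotype as the only term, and Benjamini-Hochberg adjustment at 0.05. Members below the filter come from the same fit over all genes above 0. The fit was tested on simulated data. Same-numbered libraries did not pair consistently, which leaves a pairing by number unsettled. Exon overlaps came from the annotation and near copies from blastn 2.17.0. The members, the lists and the rule for named genes (the members, the 3 genes of smallest p in each list, the 4 closest profiles) were chosen with earlier results of these data known. Mycn, Birc5, Cdc20, Aurkb, Kif11, Kif4, Espl1, Ncapg, Ncaph and Kif2c, all under the filter, were named outside that rule from their values. The closest profiles to Mki67 are not reported here.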

Additional observations from a re-analysis of the deposited data

How the results depend on the processing

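The members' differences were recomputed under 15 other settings, all planned. Ccnd1 kept its direction in all 15 and Ccnd3 likewise, as did Ccna2 and Top2a in the 14 that gave them a value; with a mean of at least 1 FPKM the 6 low members and Ccne1 had none. Ccnd1 lay between 0.76 and 1.32 with a library left out, and was called only with array quality weights (log2 difference 1.38, limma adjusted p = 0.0247), a fit whose weights did not reach their convergence tolerance.

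Signs turned for members near 0, and none of these values was called. For Ccnb1 the log2 difference was 0.0013 with a pseudocount of 0.1, 0.0198 with quantile normalization, 0.41 with voom and 0.0018 with array weights. For Ccnd2 it was 0.0360 with a pseudocount of 0.1, 0.0621 with quantile normalization and 0.13 with voom. For Cdk1 it was 0.12 without both libraries numbered 1, 0.0396 with quantile normalization, 0.17 with voom and 0.0838 with array weights. For Cdkn1b it was 0.26 without both libraries numbered 1 and 0.0703 with array weights. With each library left out in turn, the ranges were -0.0402 to 0.0327 for Ccnb1, -0.0544 to 0.0709 for Ccnd2, -0.0198 to 0.53 for Ccne1, -0.17 to 0.10 for Cdk1, -0.32 to 0.24 for Cdkn1b and -0.16 to 0.0205 for Mki67. The cause was not tested.

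Over all genes, 1 was called higher and 4 lower. These counts were 0 and 1 without a filter, 0 and 0 with the replicate block, 1 and 1 without both libraries numbered 1, 0 and 3 with quantile normalization, and 621 and 574 with array weights. With a library left out they ranged from 0 to 17 and from 0 to 4. Deviations from the group mean correlated at 0.49, 0.30 and -0.02 for the same-numbered pairs and between -0.58 and 0.45 for the others. These few values do not settle if the numbers pair the samples. The block changed no member's call. At this depth the 6 low members have too few reads to resolve any but large differences.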
